A study of Homo sapiens with 12 samples.

Results

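The interaction of time-restricted feeding (TRF) with cisplatin (DDP) was measured as the difference between the DDP effect in restricted medium and that in normal medium. For each gene this was (TRF+DDP minus TRF) minus (DDP minus CON) on log2(TPM + 1), where TPM, the deposited transcript abundance, is scaled for transcript length and to a fixed total within each library. It equals the TRF+DDP level minus the level that adding both single effects to CON predicts. All 12 of 12 libraries entered it, 3 in each of 4 groups, and 13854 of 60902 genes had a mean of at least 1 TPM and were tested. A gene was called at an adjusted p under 0.05 (limma, Benjamini-Hochberg over all genes tested), and a called gene was higher or lower according to the sign of the interaction.

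The cells were A549/DDP, a cisplatin-resistant line selected from A549, a human lung adenocarcinoma line. CON cells had normal medium with 2 g/L glucose and 10% serum. DDP cells had cisplatin, and their medium, which their sample labels do not give, was taken to be the same. TRF cells had 6 h of that medium in each 24 h cycle, followed by 18 h in a fasting medium that held neither glucose nor serum, and TRF+DDP cells had this schedule and the drug. Beside RT-qPCR on cells of these groups DDP is given as 2 µg/mL for 48 h, while for the sequenced cultures neither is stated. The resistant line is maintained in DDP, and whether CON and TRF cells were still exposed to it is not stated. The samples of a group are described as biological replicates, without a word on how their cultures were kept apart, and p-values measure the spread between these libraries.

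Cisplatin forms crosslinks between neighbouring guanines, which stall replication forks and RNA polymerase II. The damage signal stabilises p53, which induces the cell cycle inhibitor CDKN1A, its own antagonist MDM2 and death genes, while genes for mitosis are repressed through the DREAM complex. Loss of serum and glucose acts on many of the same genes through growth factor signalling and nutrient stress. The plain sum of the 2 single effects was the reference against which the combination was set.

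The epithelial genes KRT7, KRT8 and KRT18 were high in all libraries, while EPCAM, CDH1, KRT19, NKX2-1, SFTPB and CDKN2A stayed under 1 TPM in every library. Of the other epithelial and A549 markers, MUC1 had means of 32.4 TPM in CON and 4.70 in TRF, and ALDH1A1 403 and 100. Group means were 4.25 to 6.21 TPM for AKR1C1 and 7.36 to 24.8 for AKR1B10. SFTPC and NAPSA reached at most 3.75 and 1.66 TPM in a library. Of markers of other cells, 14 of 16 leukocyte, 11 of 12 fibroblast and 10 of 10 endothelial genes were under 1 TPM everywhere. The summed leukocyte list, carried by CD68 and ITGAM, spanned 9.69 to 10.8 TPM (CON), 15.9 to 17.8 (with DDP), 32.2 to 35.7 (under TRF) and 50.3 to 55.9 (under both). The summed fibroblast list, carried by COL1A1 (interaction −1.05), ran from 14.4 to 16.9, 16.8 to 22.0, 11.2 to 12.3 and 6.37 to 7.25 TPM in the same order, and their part in the results was not tested. Between 13029 and 14028 genes reached 1 TPM per library, and mitochondrially encoded genes took 6.37% (TRF 3) to 10.8% of the TPM. The correlation of log2 levels was 0.979 to 0.983 within groups and 0.915 to 0.979 between groups. In bulk RNA, fewer cells of a kind and less RNA per cell cannot be told apart.

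The response to the drug changed with the medium in 4129 genes (29.8%), of which 1868 (13.5%) were higher and 2261 (16.3%) lower in TRF+DDP than the sum of both single effects predicted. With a fold over 1.5 as well, 1845 genes remained, 825 higher and 1020 lower. The median interaction over all genes was 0.00 and its median SE 0.14. The DDP effect itself, called where the fold exceeded 1.5 and the adjusted p lay below 0.05, took in 279 genes in normal medium (2.01%; 257 higher, 1.86%) and 2258 genes in restricted medium (16.3%; 1413 higher, 10.2%, and 845 lower, 6.1%). These 2 effects share no library. The same direction was called in 154 genes, which are 55.2% of the calls in normal medium and 6.82% of those in restricted medium, and 8 genes were called in opposite directions. Over genes, the SD of the effect was 0.30 in normal and 0.51 in restricted medium, with a Pearson r of 0.19 and a Spearman rho of 0.26 across genes, which are not independent replicates.

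Called genes were sorted by their DDP effects in the 2 media. In 1729 genes that rose and 1709 that fell in restricted medium, the effect was larger in size there (larger rise and larger fall). In 338 genes that rose and 101 that fell in normal medium, the effect was smaller in size in restricted medium (smaller rise and smaller fall). For these classes the effect in normal medium did not have to pass the test, and that in restricted medium could have either sign. In 252 genes (1.82%) the drug acted in opposite directions, each at an adjusted p under 0.05, with 214 that rose in normal and fell in restricted medium and 38 the other way round. The count of 252 moved with single libraries: it was 126 without CON 1, 132 without CON 2, 146 without DDP 1 and 136 without DDP 3. Among the 1729 larger rises, TRF alone was called lower than CON in 361 and higher in 151 (17.1% and 8.41% of all genes tested), so most of them were called in neither direction after TRF alone. Against DDP, TRF+DDP was called higher in 660 of them and lower in 65 (11.8% and 21.4% of all genes). Among the 1709 larger falls, TRF+DDP was called lower than DDP in 1025 and higher in 28 (21.4% and 11.8% of all genes). These comparisons share libraries with the interaction that chose the classes, so their distance from the shares over all genes is in part built in.

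**Figure D1:**
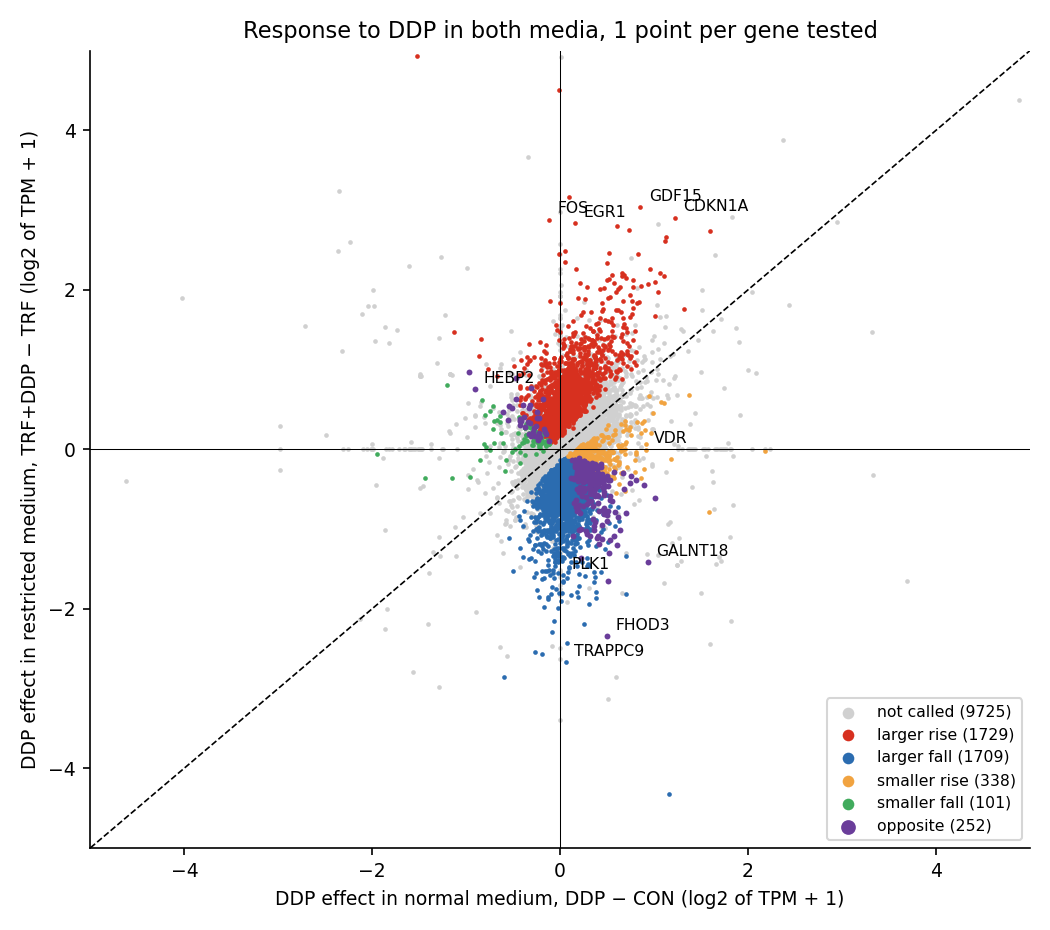
Each point is a gene, with the DDP effect in normal medium (DDP minus CON) on the x axis and in restricted medium (TRF+DDP minus TRF) on the y axis, both as log2 of TPM + 1, coloured by response class with the number of genes. The dashed line marks equal effects. The called genes spread along the y axis more than along the x axis, with 1729 larger rises above the line and 1709 larger falls below it.

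Among lists with at least 10 genes tested, targets of p53 had the largest share of higher members. Of 47 listed genes, 42 were tested, 32 were higher, 2 were lower and 8 were not called, with a median interaction of 0.89. The higher and lower shares were 76.2% and 4.76%, against 13.5% and 16.3% of all genes tested. The drug raised 20 of the 42 by over 1.5-fold in normal medium and 37 in restricted medium (1.86% and 10.2% of all genes), and the median effect was 0.61 and 1.30, against 0.06 and 0.06 over all genes. Per library, the median level of the list relative to the CON mean was 0.61 to 0.65 with DDP alone, −0.21 to −0.09 with TRF alone and 1.37 to 1.41 with both. TRF alone lowered 11 members and raised 6 (17.1% and 8.41% of all genes tested). TRF+DDP was above DDP in 26 members and below it in 3 (11.8% and 21.4% of all genes tested). Most of the list was thus called above its prediction, and most of it above the drug alone, while members that met both were not counted.

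CDKN1A (chr6:36676460-36687339, plus strand, GENCODE 29, GRCh38), the p21 inhibitor of cyclin-dependent kinases, stood at 116, 114 and 122 TPM in CON, 279.7, 268 and 278 in DDP, 121, 129.7 and 126 in TRF, and 960.2, 929 and 949 in TRF+DDP. TRF alone did not pass the test (0.09, adjusted p = 0.0571), and the interaction was 1.69 ± 0.06 (SE; adjusted p = 7.65e-09). The sum of both effects predicted 293 TPM. GDF15, a stress cytokine induced by p53 and by ATF4, was at 112, 111 and 110.1 TPM in CON, 209, 195 and 199.6 in DDP, only 42.0, 47.3 and 47.7 in TRF, and 372, 393 and 377 in TRF+DDP. Here TRF lowered the level (−1.26) and the drug response grew from 0.85 to 3.03, an interaction of 2.18 ± 0.07 (adjusted p = 7.65e-09). BTG2, an antiproliferative p53 target, was likewise lowered by TRF alone, with means of 17.3 ± 0.147, 29.5 ± 0.650, 8.46 ± 0.757 and 62.6 ± 2.27 TPM in CON, DDP, TRF and TRF+DDP (SD, n = 3) and an interaction of 2.02 ± 0.09.

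MDM2, the ubiquitin ligase that degrades p53, rose with the drug from 37.2, 41.5 and 45.5 to 91.9, 97.0 and 85.2 TPM in normal medium, and from 24.4, 36.2 and 25.2 to 184 in each of the 3 libraries in restricted medium. Its interaction was 1.54 ± 0.18 (adjusted p = 7.87e-05). GADD45A, a growth arrest and repair factor, had an interaction of 1.19 ± 0.09, with 219 ± 7.94 TPM in TRF+DDP where the sum predicted 95.3. Among the death genes, PMAIP1 (NOXA) went from 8.15 ± 1.73 TPM in TRF to 54.2 ± 3.73 in TRF+DDP (interaction 1.49), and BBC3 (PUMA) from 11.3 ± 0.691 to 48.9 ± 1.42 (1.55). PIDD1, which assembles the caspase-2 platform, went from 19.8 ± 0.481 to 91.3 ± 8.91 TPM (1.45). In each of these genes the 3 TRF+DDP libraries lay above the other 9. For BBC3 and PIDD1, named for their interactions, this is in part built in.

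Other members of the list did not follow. BAX, the pore former of the outer mitochondrial membrane, had DDP effects of 0.48 and 0.35 in normal and restricted medium and an interaction of −0.13 (adjusted p = 0.222). DDB2 and XPC, which recognise damage for nucleotide excision repair, had interactions of −0.00 and −0.12 and were not called. TP53I3, an oxidoreductase, was lower (−0.28), and so was GTSE1 (−0.67), a mitotic gene that restrains p53 activity.

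**Figure D2:**
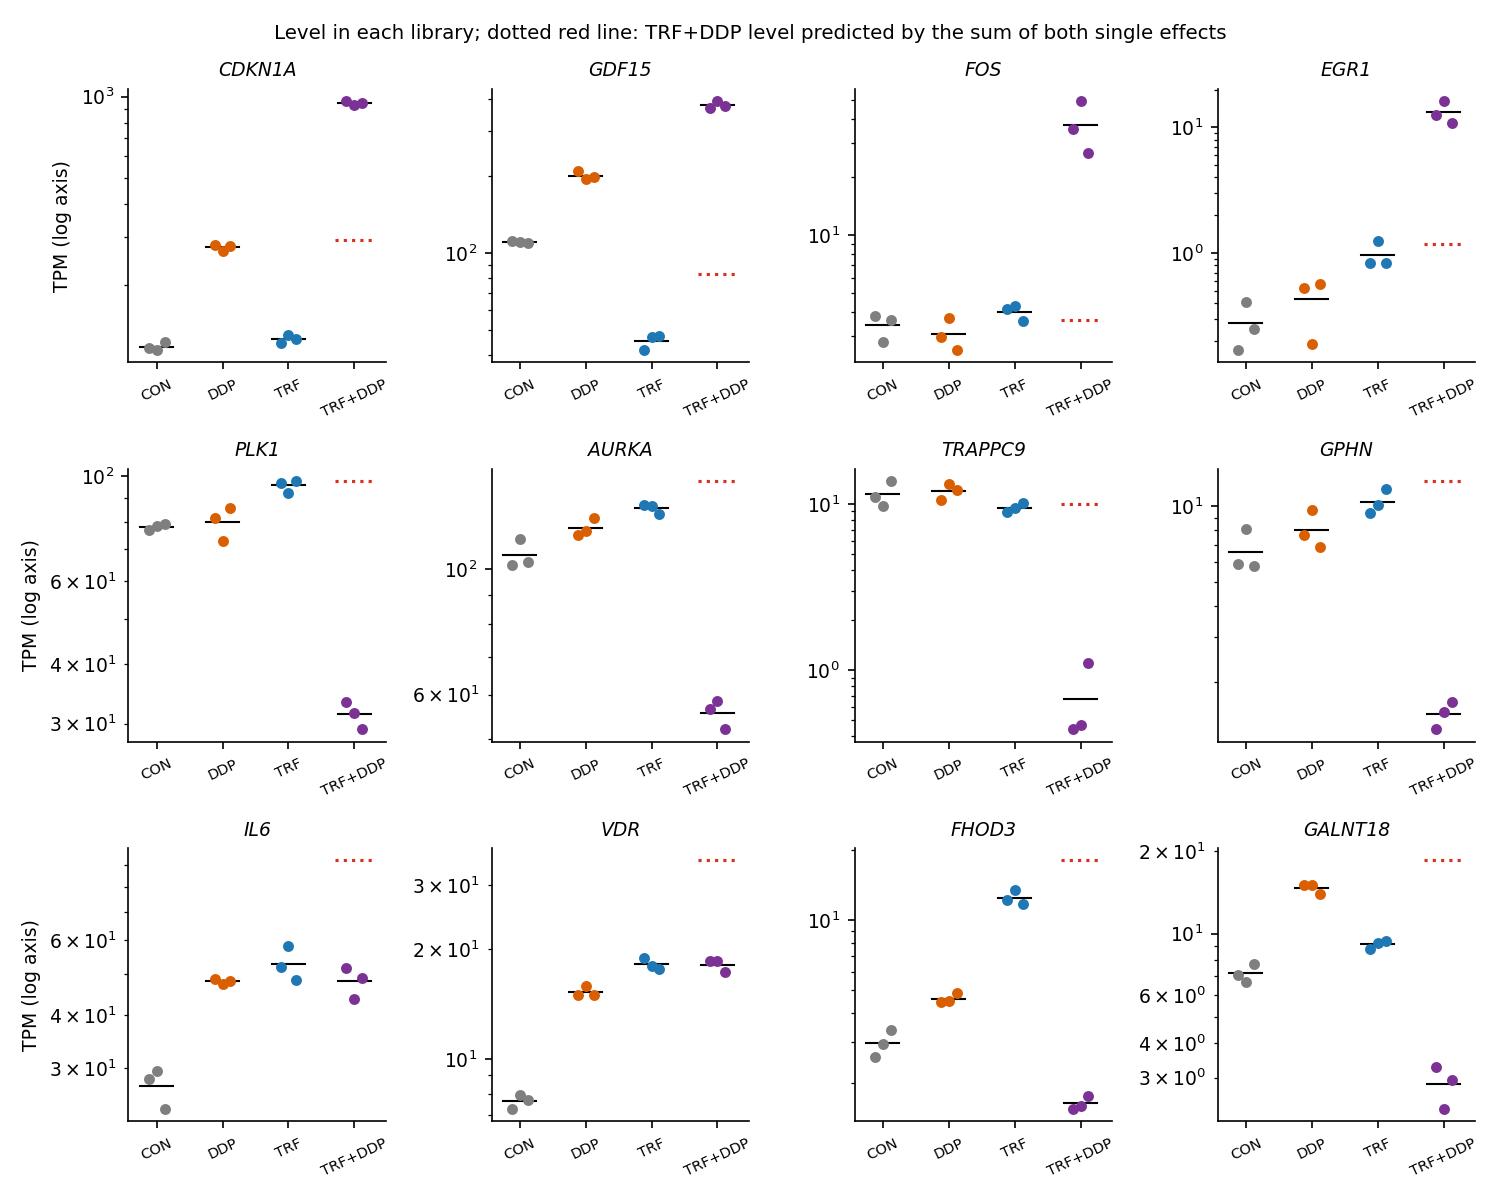
TPM of 12 genes in each library on log axes (points), with the group mean as a black line and the TRF+DDP level predicted by adding both single effects as a dotted red line. The TRF+DDP libraries lie above the prediction in CDKN1A, GDF15, FOS and EGR1 and below it in PLK1, AURKA, TRAPPC9, GPHN, IL6, VDR, FHOD3 and GALNT18.

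Immediate early genes, the transcription factors and phosphatases that respond to mitogens and stress without new protein synthesis, were called higher in most members. Of 33 tested, 23 were higher and 5 lower, and the median interaction was 0.59. These are 69.7% and 15.2%, against 13.5% and 16.3% of all genes tested. In this list the drug had little effect in normal medium (median 0.05) and a median effect of 0.53 in restricted medium. FOS, a subunit of AP-1, was at 3.83, 2.80 and 3.63 TPM in CON, 2.99, 3.73 and 2.55 in DDP, 4.14, 4.30 and 3.62 in TRF, and 35.4, 49.3 and 26.6 in TRF+DDP. The first 3 groups overlapped and TRF+DDP stood alone, with an interaction of 2.996 ± 0.26 (adjusted p = 8.23e-06). EGR1, a zinc finger factor, was at 1.24 TPM or lower in the other 9 libraries and at 12.7, 16.1 and 10.9 in TRF+DDP (interaction 2.68 ± 0.23). FOSB (2.43 ± 0.28) and ARC (2.10 ± 0.23), an activity-induced gene best known from neurons, behaved alike, from 0.937 ± 0.166 and 1.35 ± 0.0651 TPM in TRF to 10.2 ± 3.24 and 10.6 ± 3.05 in TRF+DDP. The spread of these genes among the TRF+DDP libraries was wide, with library 2 highest and library 3 lowest in each of FOS, EGR1, FOSB and ARC. Not every member rose. FOSL1, an AP-1 subunit, had its drug response reduced from 0.99 to 0.45 (interaction −0.54), MYC fell more in restricted medium (−0.40), and SPRY2 and DUSP4, feedback inhibitors of ERK signalling, were lower (−0.65 and −0.67).

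The starts of EGR1 and FOS are shown because they carry the elements for which these genes are textbook examples. RefSeq sequence (GRCh38.p14) was searched in the 250 bases before each start on both strands, and the build behind the deposited values is not stated. Capitals mark CArG boxes, the binding element of serum response factor, in EGR1 (chr5:138465359-138465478, plus strand) and the cyclic AMP response core TGACGT in FOS (chr14:75278708-75278827, plus strand), in the last 120 bases before the start.
EGR1: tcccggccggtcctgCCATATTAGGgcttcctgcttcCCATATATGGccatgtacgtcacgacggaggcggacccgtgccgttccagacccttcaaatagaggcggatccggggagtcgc
FOS: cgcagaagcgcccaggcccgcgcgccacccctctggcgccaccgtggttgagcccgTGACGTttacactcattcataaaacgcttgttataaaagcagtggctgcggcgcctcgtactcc
A CArG box was found in 2 of 24 immediate early genes with a RefSeq sequence (8.33%), against 0.953% of 10076 tested genes, and TGACGT in 8 of 24 (33.3%) against 10.7%. EGR1 also holds TGACGT, read on the other strand, in lower case. The letters of these elements cannot overlap. SRF itself had an interaction of 0.52.

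Mitotic genes lay on the other side. All 50 listed genes were tested, 33 were lower and 0 were higher (16.3% and 13.5% of all genes tested), and the median interaction was −0.59. The drug had a median effect of 0.10 on this list in normal medium, where 0 members were called, and of −0.47 in restricted medium, where 17 were called lower (6.1% of all genes). After TRF alone 5 members were called lower and 0 higher, shares below those of all genes tested (17.1% and 8.41%). TRF+DDP was below DDP in 33 members (21.4% of all genes). Per library, the list median relative to the CON mean was 0.07 to 0.17 with DDP alone, −0.25 to −0.09 with TRF alone and −0.70 to −0.58 with both, with no overlap between TRF+DDP and the rest.

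PLK1, the polo-like kinase that drives mitotic entry, was at 76.8, 78.3 and 79.2 TPM in CON, 81.4, 72.9 and 85.4 in DDP, 96.9, 92.1 and 97.6 in TRF, and 33.3, 31.7 and 29.2 in TRF+DDP. Neither single treatment lowered it, and the combination was 0.328 of its predicted level on the TPM + 1 scale (interaction −1.61 ± 0.09, adjusted p = 5.70e-07). AURKA, the spindle pole kinase, was at 102, 113 and 103 TPM in CON, 115, 117 and 123 in DDP, 130.0, 129 and 125 in TRF, and 56.7, 58.4 and 52.0 in TRF+DDP (−1.35 ± 0.08). The chromosomal passenger subunit CDCA8 (−1.07 ± 0.10) and the checkpoint kinase TTK (−0.98 ± 0.18) had their highest means in TRF and their lowest in TRF+DDP. The cyclin gene CCNB1 (−0.80), the anaphase activator CDC20 (−0.91), the centromeric histone CENPA (−0.90) and BIRC5, survivin (−0.61), were lower as well. The 17 members that were not called included CDK1 (−0.35), AURKB (−0.26), MKI67 (−0.34) and PTTG1 (0.20), the securin gene.

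Promoters of mitotic genes are known for a CHR element, bound by the DREAM complex, and CCAAT boxes, bound by NF-Y. The CHR letters TTTGAA, which can overlap CCAAT only at an end base, were found in 23 of 43 mitotic genes with a RefSeq sequence (53.5%), against 7.81% of 10076 tested genes, and CCAAT in 79.1% against 35.0%. CHR letters were present in 16 of 27 lower members (59.3%) and in 7 of 16 that were not called (43.8%), and CCAAT in 77.8% and 81.3% of them. PLK1 (chr16:23678769-23678888, plus strand), CDC20 (chr1:43358861-43358980, plus strand) and KIF18A (chr11:28108157-28108276, minus strand; interaction −0.90) are shown as lower members that hold both in the last 120 bases before the start, with CHR and CCAAT in capitals.
PLK1: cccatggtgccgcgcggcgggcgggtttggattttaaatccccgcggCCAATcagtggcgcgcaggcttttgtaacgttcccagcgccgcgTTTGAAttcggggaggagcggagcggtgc
CDC20: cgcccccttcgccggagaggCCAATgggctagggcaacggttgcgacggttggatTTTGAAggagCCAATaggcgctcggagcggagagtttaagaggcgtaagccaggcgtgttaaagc
KIF18A: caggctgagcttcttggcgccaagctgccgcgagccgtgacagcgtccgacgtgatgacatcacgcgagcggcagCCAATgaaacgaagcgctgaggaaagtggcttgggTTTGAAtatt
A match of letters is a description of these windows, and binding was not measured.

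Replication genes were lower more often than all genes tested. Of 52 tested, 20 were lower and 9 higher, with a median of −0.19. These are 38.5% and 17.3%, against 16.3% and 13.5% of all genes tested, so the higher share was near that of all genes. The helicase subunits MCM2, MCM3, MCM4, MCM5, MCM6 and MCM7 were lower, from −0.16 (MCM7) to −0.64 (MCM4), as were the origin and fork factors ORC1 (−0.73) and GINS1 (−0.89), and UHRF1 (−1.04 ± 0.07), which couples DNA methylation to replication. Among the 9 higher members were the polymerase clamp PCNA (0.49), the clamp loader subunit RFC5, the polymerase subunit POLD2, the ligase LIG1, the ribonucleotide reductase subunits RRM1 (0.51) and RRM2 (0.38), and the nucleotide enzymes TYMS (0.39) and TK1 (0.28). PCNA is also a known p53 target. Of 54 genes of damage signalling and repair, 5 were higher and 8 lower (median −0.09), a share below that of all genes, and 5 were lower without DDP 2 or without TRF+DDP 3. The translesion polymerase gene POLH (0.76), which copies past cisplatin crosslinks, was higher.

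The protein-coding genes named for the lowest interactions among larger falls all had long genomic spans. TRAPPC9, a subunit of a vesicle tethering complex that spans 731 kb, was at 10.99, 9.69 and 13.7 TPM in CON, 10.5, 13.1 and 12.1 in DDP, 8.97, 9.41 and 10.1 in TRF, and 0.440, 0.470 and 1.11 in TRF+DDP (interaction −2.73 ± 0.22, adjusted p = 4.21e-06). GPHN, which encodes the synaptic scaffold and molybdenum cofactor enzyme gephyrin over 674 kb, was at 9.40, 10.1 and 11.8 TPM in TRF and 1.29, 1.51 and 1.66 in TRF+DDP, with 6.59 ± 1.33 in CON and 8.06 ± 1.42 in DDP (−2.45 ± 0.20). GMDS, an enzyme of GDP-fucose synthesis (622 kb, −2.28), the receptor phosphatase gene PTPRG (736 kb, −2.25), the cadherin gene CDH4 (688 kb, −2.10), the checkpoint gene MAD1L1 (417 kb, −2.02) and the proteoglycan gene SPOCK1 (623 kb, −2.26) completed the protein-coding genes at the top of this class. In all of them but SPOCK1 the TRF+DDP libraries lay below the other 9, which is in part built in, since they were chosen by their interactions. SPOCK1 rose from 1.45 ± 0.613 TPM in CON to 15.2 ± 1.75 in TRF, and was back at 1.25 ± 0.329 in TRF+DDP.

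Span was then described over all 11874 protein-coding genes tested that have one in GENCODE 29, a description chosen after these genes had been seen. Of 373 genes over 300 kb, 248 were lower (66.5%) and 3 higher (0.804%), with a median interaction of −0.80. Between 100 and 300 kb, 33.5% were lower and 3.92% higher, and between 30 and 100 kb 15.6% and 11.5%. Below 10 kb the order was turned, with 12.2% lower and 20.8% higher and a median of 0.06. In normal medium the median drug effect of genes over 300 kb was 0.06 to 0.14 per library, while in restricted medium it was −0.73 to −0.68. Among genes of low, middle and high mean TPM, the share of lower genes over 300 kb was 65.6%, 65.8% and 75%. Spearman's rho of the interaction across genes was −0.31 with span, −0.08 with the length of the longest transcript and −0.03 with mean TPM. The median effect of TRF alone on genes over 300 kb was −0.27.

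**Figure D3:**
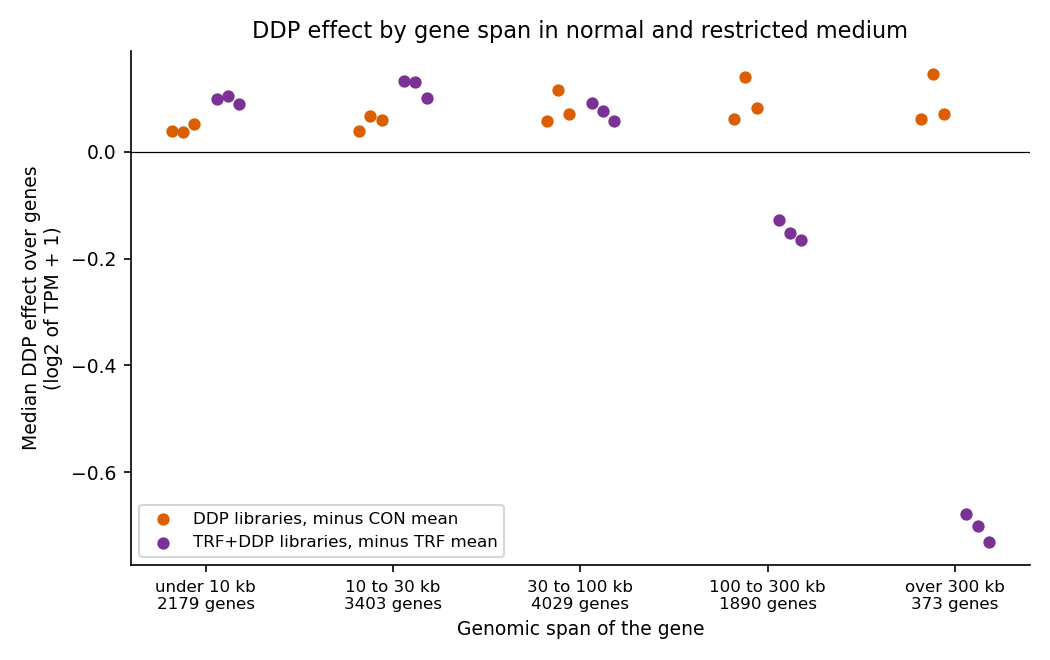
Median DDP effect (log2 of TPM + 1) over the protein-coding genes of each span class, for each DDP library minus the CON mean and each TRF+DDP library minus the TRF mean. At 30 to 100 kb the media overlap, and in genes over 300 kb the TRF+DDP libraries lie at −0.73 to −0.68 where the DDP libraries lie at 0.06 to 0.14.

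Of the 338 smaller rises, 236 passed the test in normal medium and 37 in restricted medium. IL6, a cytokine, was at 28.2, 29.4 and 24.0 TPM in CON, 48.6, 47.4 and 48.04 in DDP, 51.7, 58.1 and 48.4 in TRF, and 51.6, 43.7 and 48.8 in TRF+DDP. Each treatment alone raised it, and TRF+DDP overlapped both, where the sum predicted 92.4 TPM (interaction −0.93 ± 0.12, adjusted p = 1.53e-04). VDR, the vitamin D receptor gene, went from 7.65 ± 0.347 TPM in CON to 15.3 ± 0.537 with DDP alone and 18.2 ± 0.634 with TRF alone, and was at 18.1 ± 0.745 in TRF+DDP (−0.92 ± 0.09). In ASTN2, a membrane protein gene of 990 kb, the drug raised 11.4 ± 0.191 to 22.5 ± 0.624 TPM in normal medium, and left 7.35 ± 0.252 at 7.71 ± 0.327 in restricted medium (−0.85 ± 0.09). DKK1, a secreted WNT inhibitor, kept a rise of 0.68 in restricted medium where it had 1.38 in normal medium (−0.70). NMNAT2, an axonal enzyme of NAD synthesis, had the lowest interaction among genes of the class that reached 10 TPM in a group (−0.93 ± 0.25), with 10.3 ± 1.43 TPM in DDP and 2.703 ± 0.298 in TRF+DDP. The genes named after IL6, VDR and ASTN2 were RRN3P4 (−0.84), GFRA1 (−0.82), WNK2 (−0.82) and CEND1 (−0.81). RRN3P4 is a pseudogene, uncertain because of its near-identical copies. GFRA1 is a receptor for the growth factor GDNF, WNK2 a kinase gene and CEND1 a neuronal gene of cell cycle exit. GFRA1 did not pass the test in normal medium (0.43, adjusted p = 0.0735) and fell in restricted medium (−0.39, adjusted p = 0.0412). The effects of NMNAT2, RRN3P4, WNK2 and CEND1 in restricted medium were also negative (−0.25 to −0.19) and did not pass.

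Of 24 interferon-stimulated genes tested, 9 were lower and 1 was higher (37.5% and 4.17%, against 16.3% and 13.5% of all genes tested; median −0.23). The antiviral genes IFIT1 (−0.86), OAS1 (−0.85), IFI44 (−0.86) and RIGI (−0.77) rose by 0.39 to 0.81 with the drug in normal medium and had effects of −0.38 to −0.04 in restricted medium. Under 4 of 19 alternatives IFI44 was no longer called. On linear TPM the differences were small, at −2.68 TPM for IFIT1, −1.37 for OAS1 and −1.46 for IFI44. Among genes with at least 1 TPM in every library, which leaves out OAS1 and IFI44, 6 of 19 were lower and 1 higher. Of 22 NF-kB and inflammatory genes, 8 were lower and 5 higher (36.4% and 22.7%). The balance turned to 5 lower and 7 higher on linear TPM, and without TRF+DDP 3 it was 7 and 3. The genes IL6, CXCL1 (−0.60), CCL2 (−0.34) and SOD2 (−0.30) lay below the sum, and CXCL8 (1.01), ICAM1 (0.60), LIF (0.58) and TNFAIP3 (0.45) above it. CXCL8 was at 0 to 0.710 TPM in CON and 2.87 to 4.06 in TRF+DDP, and its call was lost under 3 of 19 alternatives, 1 of them without TRF+DDP 3.

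Smaller falls numbered 101, of which 50 passed the test in normal medium, and 229 after quantile normalization and 177 after TMM-style scaling. ALDOC, an aldolase isoform, was at 20.3, 20.8 and 21.2 TPM in CON, 10.9, 11.3 and 11.1 in DDP, 12.8, 11.8 and 12.9 in TRF, and 12.2, 10.4 and 11.1 in TRF+DDP (interaction 0.71 ± 0.09, adjusted p = 1.77e-04). Either treatment alone lowered it, and the libraries of TRF+DDP overlapped those of DDP and of TRF. The nucleoside and monoamine transporter gene SLC29A4 (0.79), the mucin gene MUC1 (0.74) and the host gene SNHG7 (0.69) had drug effects of −0.71, −0.75 and −0.61 in normal medium and of 0.08, −0.01 and 0.08 in restricted medium. TRF alone was called lower in 50 of the 101 genes of this class and higher in 2, against 17.1% and 8.41% over all genes tested. The interaction subtracts the TRF level, so choosing genes by a positive interaction favours low TRF levels. No more is read from these shares. MCUB, a regulatory subunit of the mitochondrial calcium uniporter, had the highest interaction among genes of the class that reached 10 TPM in a group (1.22 ± 0.36), with CON libraries from 19.2 to 38.3 TPM. The call of MCUB was lost under 6 of 20 alternatives, among them linear TPM (adjusted p = 0.0643) and the fits without DDP 2, DDP 3, TRF 2 or TRF+DDP 3.

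In the opposite class FHOD3, a formin that builds actin filaments (482 kb), was at 2.59, 2.93 and 3.37 TPM in CON, 4.46, 4.51 and 4.85 in DDP, 12.2, 13.4 and 11.7 in TRF, and 1.55, 1.59 and 1.77 in TRF+DDP. Each single treatment raised it and the combination lay below CON, with drug effects of 0.50 and −2.35 (interaction −2.85 ± 0.14, adjusted p = 2.32e-07). GALNT18, of the family that starts mucin-type O-glycans, was also lowest in TRF+DDP, with 7.18 ± 0.532, 14.6 ± 0.609, 9.17 ± 0.308 and 2.84 ± 0.489 TPM in CON, DDP, TRF and TRF+DDP (−2.35 ± 0.14). NPAS2, a partner of BMAL1 in the circadian clock, was at 57.6 ± 6.37 TPM in DDP and 19 ± 4.07 in TRF+DDP, against 39.7 ± 4.35 in CON and 47.8 ± 2.12 in TRF (−1.83 ± 0.18). CALB2, the calcium-binding protein calretinin (−1.67), the transporter gene SLCO2B1 (−1.66) and the kinase gene STK32B (−1.60) went from a rise to a fall as well. BMAL1 was lower too (−0.70), and NR1D1, which represses it, was higher (1.14). HEBP2, a heme-binding protein gene, went the other way, from 17.4 ± 4.74 to 8.77 ± 2.25 TPM in normal medium and from 15.8 ± 3.14 to 27.5 ± 6.69 in restricted medium (1.66 ± 0.34). Of the 373 protein-coding genes over 300 kb, 23 were in this class of 252 (6.17%, against 1.82% of all genes). Without CON 1 the class held 126 genes.

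Stress and growth lists were mixed. Among 35 genes that answer to ATF4 or to amino acid loss, 12 were higher and 6 lower (median 0.12). These are 34.3% and 17.1%, against 13.5% and 16.3% of all genes tested. The lower share was thus near that of all genes. The higher members included the stress factors ATF3 (1.29), DDIT3 (1.39) and CEBPB (1.08), the sestrin SESN2 (1.59) and PPP1R15A (1.46), the phosphatase subunit that reverses eIF2α phosphorylation. DDIT3 (CHOP) fell from 15.04 ± 1.35 TPM in CON to 5.93 ± 0.231 in TRF, and stood at 23.9 ± 1.51 in DDP and 27.4 ± 1.70 in TRF+DDP. The amino acid genes PYCR1 (−0.76) and SLC6A9 (−0.76) were lower, and ASNS, asparagine synthetase, which TRF alone raised by 3.72, had an interaction of 0.36. Of 32 pro-apoptotic genes, 12 were higher and 6 lower (37.5% and 18.8%; median 0.11), with 3 lower without CON 1 or without DDP 1. The higher members were led by BBC3, PMAIP1, PIDD1 and DDIT3 and included APAF1 (1.16) and BAK1 (0.43). The lower share was near that of all genes, and the lower members included BID (−0.60), CASP2 (−0.44) and FADD (−0.38). BBC3, PMAIP1 and PIDD1 are in the p53 list as well. BCL2L11 (BIM) fell by 0.42 with the drug in normal medium and rose by 0.36 in restricted medium (interaction 0.78).

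Of 27 NRF2 targets, 14 were lower and 2 higher (median −0.20). These are 51.9% and 7.41%, against 16.3% and 13.5% of all genes tested. On linear TPM 8 were lower and 3 higher, and AKR1C3 was not called (adjusted p = 0.418). The lower members included enzymes of NADPH supply and detoxification: TALDO1 (−0.47), TXNRD1 (−0.50), GCLC (−0.51), AKR1C3 (−0.57) and AKR1B1 (−0.91). AKR1B1, aldose reductase, was raised from 1149.7 ± 14.6 to 1649 ± 75.9 TPM by DDP in normal medium and lowered from 1179.9 ± 54.0 to 901 ± 26.2 in restricted medium. Of 22 SRF and YAP targets of the cytoskeleton, 13 were lower and 5 higher (59.1% and 22.7%; median −0.25). The lower members included the actins ACTB (−0.50) and ACTG1 (−0.45), tropomyosin TPM1 (−0.90), the myosin MYH9 (−0.43) and TAGLN (−1.11). The 5 higher members were the matricellular genes CCN1 (0.67) and CCN2 (0.52), the scaffold genes AMOTL2 (0.57) and AJUBA, and SRF (0.52). Ribosome biogenesis factors were higher in 23 and lower in 4 of 67 (34.3% and 5.97%; median 0.20). The lower count was 2 without CON 2, TRF+DDP 1 or TRF+DDP 3. The methyltransferase gene NOP2 (0.73), the RNA polymerase I subunit POLR1B (0.71) and the helicase DDX21 (0.58) led the higher members. Cholesterol genes were higher in 7 and lower in 2 of 26 (26.9% and 7.69%; median 0.13). They were led by TM7SF2 (1.5; not called on linear TPM, adjusted p = 0.865), a sterol reductase, and SQLE (0.82), squalene epoxidase. HBEGF, a ligand of EGFR, was at 1.38 ± 0.353, 2.41 ± 0.346, 4.68 ± 0.968 and 30.1 ± 3.38 TPM in CON, DDP, TRF and TRF+DDP (1.94 ± 0.20), while EGFR, its receptor, was lower (−0.83 ± 0.11). Proteasome genes were seldom called, with 1 of 36 members called (PSMD11, −0.30; 29.8% of all genes tested) and a median interaction of −0.00.

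**Figure D4:**
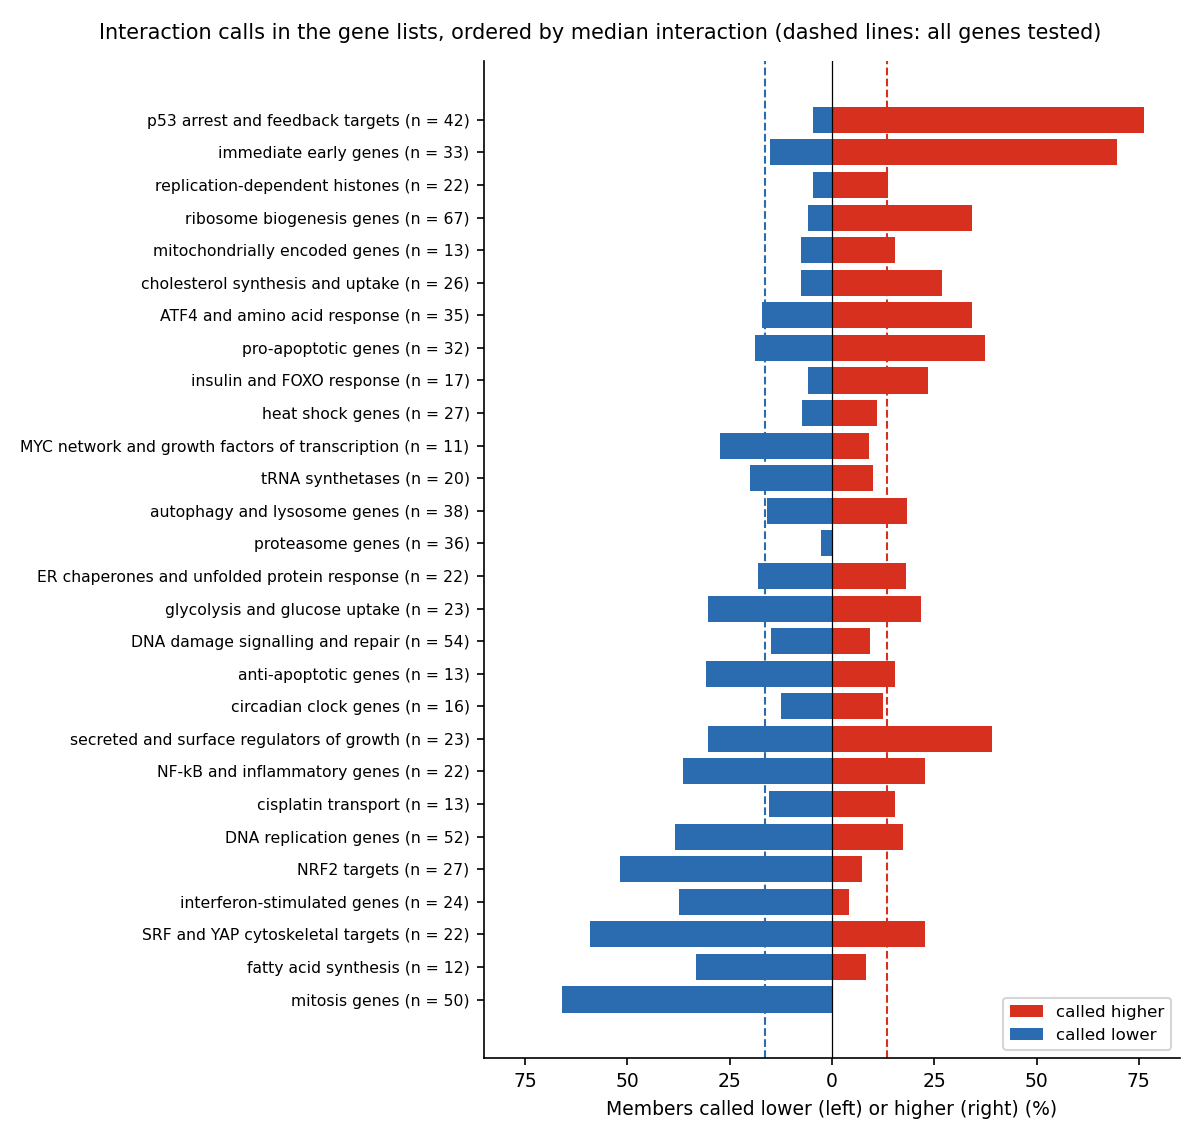
Share of the tested members of each list with at least 10 tested genes that was called higher (right, red) or lower (left, blue) in the interaction, in percent, ordered by median interaction. Dashed lines mark the shares over all genes tested, 13.5% higher and 16.3% lower. The p53 and immediate early lists stand to the right and the mitotic, SRF and YAP, and NRF2 lists to the left.

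Among the largest rises outside these lists were HIC1, a transcriptional repressor, with 0.483 ± 0.112, 1.27 ± 0.272, 0.810 ± 0.0954 and 11.6 ± 0.277 TPM in CON, DDP, TRF and TRF+DDP (2.19 ± 0.16), and the long noncoding RNA LINC01629 (2.29 ± 0.31). Short RNAs and processed pseudogenes at the top of these classes are uncertain, since such RNAs lack a poly(A) tail or have near-identical copies. RNU6ATAC and CDC26P1 were listed at 0 in all 3 TRF libraries and SNORA62 in all 3 CON and TRF+DDP libraries, so no fold is given, and the calls of RNU6ATAC and RPL21P75 were lost under 14 of 19 and 10 of 20 alternatives.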

How the data were processed

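Poly(A) RNA of 12 A549/DDP libraries was sequenced. The authors used SeqPrep and sickle for trimming, HISAT2 for alignment and StringTie for assembly, and they deposited TPM values per gene. Not stated are the tool that gave the TPM, the versions, the strand setting and the build. The submitters' processing notes also name edgeR, without a role. TPM holds no depth, so counting error is unknown, and the deposited group means were not used. The extract protocol speaks of A549, the labels of A549/DDP.

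Log levels of genes whose mean reached 1 TPM were fitted, as log2(TPM + 1) with limma 3.58.1 (R 4.3.3; trended moderated variances, all 4 groups in one fit, two-sided, Benjamini-Hochberg over 13854 genes). Fold changes on this scale understate those of low genes. Calls of single effects needed a fold above 1.5 beside an adjusted p below 0.05, and those of the interaction only the latter. Python 3.11.15 with pandas 2.3.3 made the tables. Of 60902 rows, 60463 had a symbol, and 58396 were matched to GENCODE 29 for position. Promoters came from RefSeq.

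The 34 lists and the members were chosen with earlier results of these data known. Genes named were those the study names for mRNA, the 8 largest interactions per class among genes with at least 10 TPM in the highest group, and up to 4 called members per list. Further list members, the span classes and DKK1 were chosen after their values were seen. A few genes of the rule are not reported here. Simulated data for this interaction held 13854 genes, with 50 changed genes per size. Log2 changes of 0.4, 0.8, 1.2 and 2 gave 14, 47, 45 and 48 true calls, beside 8 false ones. The changed genes were drawn above a higher TPM floor than that of the test, so recovery in low genes was not measured. Alternatives were other scalings, filters and pseudocounts, linear TPM, limma without trend, a replicate block and leaving out each library. Same-numbered libraries of different groups did not deviate together (18 correlations, −0.082 to 0.079).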

Additional observations from a re-analysis of the deposited data

Results flagged for a closer look

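The interaction itself is a difference between 2 effects of the drug, and it passed the test in 1868 genes that were higher and 2261 that were lower in TRF+DDP than both single effects predict. Beyond these counts, single genes stood out because the drug moved them in opposite directions in the 2 media, each direction and the difference past an adjusted p of 0.05 (limma). This class held 252 genes, but 126 without CON 1. For single genes the alternatives were followed for the interaction only, not for the opposite directions. In normal medium the effects of LRRC20 (adjusted p = 0.0464) and HEBP2 (adjusted p = 0.0372) were near the threshold.

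Genes that rose in normal and fell in restricted medium were FHOD3 (−2.85), GALNT18 (−2.35), the clock gene NPAS2 (−1.83), CALB2 (−1.67), SLCO2B1 (−1.66), STK32B (−1.60) and LRRC20 (−1.59). Smaller differences of the same kind were found for TRAF2, an adaptor of TNF receptors (−0.68), the chaperones HSPA8 (−0.48) and SDF2L1 (−0.59), aldose reductase AKR1B1 (−0.91), the interferon-induced IFI6 (−0.92), the phosphofructokinase PFKP (−0.51), the autophagy genes SQSTM1 (−0.87) and ATG7 (−0.88), tropomyosin TPM1 (−0.90) and keratin KRT7 (−0.56).

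Genes that fell in normal and rose in restricted medium were HEBP2 (1.66), the sterol synthesis genes SQLE (0.82) and CYP51A1 (0.62), and SLC2A3, a glucose transporter gene (1.04). SQSTM1, the autophagy receptor p62, went from 1209 ± 26.6 TPM in CON to 1507 ± 75.4 in DDP, and from 2445 ± 32.8 in TRF to 1667 ± 36.6 in TRF+DDP (SD, n = 3). SLC2A3 went from 19.4 ± 0.537 to 13.3 ± 0.194 TPM in normal medium and from 5.22 ± 0.889 to 7.87 ± 0.0702 in restricted medium.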

How the results depend on the processing

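The interaction called 4129 genes, with a range from 3295 with no filter on low values to 4428 without TRF replicate 2. Leaving out single libraries gave 3453 to 4428 calls, with 1482 to 2197 higher and 1915 to 2231 lower. Shares of the 4129 genes that were called again ran from 73.0% with no filter to 98.0% with a pseudocount of 0.1. With a fold over 1.5 as well, 1845 were called, 825 higher and 1020 lower. Classes with few genes moved more. Smaller rises numbered 225 after quantile normalization and 202 after TMM-style scaling, and smaller falls 229 and 177. Genes with opposite effects numbered 159 after TMM-style scaling, 133 with no filter, and 126 to 279 when single libraries were left out (126 without CON 1, 132 without CON 2, 146 without DDP 1, 136 without DDP 3). The causes were not tested. With the replicate block 4071 genes were called, 1821 higher and 2250 lower. The same replicate numbers are not stated to mark a shared culture and their correlations gave no sign of one, so the block stayed an alternative. Of 153 named genes, 122 kept direction and call under every alternative. TRAF1 (12.2 TPM, adjusted p = 6.10e-04) and ABCC4 (0.453 TPM, adjusted p = 0.801) changed sign on linear TPM, from −0.52 and −0.40 on the log2 scale. On linear TPM the prediction is a sum of differences, and on the log scale a product of ratios.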

Other observations

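Metal and stress genes outside the report's groups are given here as values, and list counts are to be read against 13.5% higher and 16.3% lower over all genes tested. SLC30A1, the zinc exporter induced by metals through MTF1, was at 5.57 ± 0.266, 8.46 ± 0.687, 3.63 ± 0.741 and 19.2 ± 0.502 TPM in CON, DDP, TRF and TRF+DDP (SD, n = 3), with an interaction of 1.62 ± 0.15. MTF1 itself was higher (0.68) and the metallothionein gene MT2A lower (−0.47), the 3 called of 4 tested in this list. Of 13 genes of cisplatin transport, the exporters ABCC2 (0.64) and ABCC3 (0.23) were called higher and ABCC1 (−0.62) and ABCC4 (−0.40) lower. The call of ABCC3 was lost under 14 of 20 alternatives and that of ABCC2 under 8 of 20.

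In the insulin and FOXO list 4 of 17 genes were higher, SESN1 (1.51), BCL6 (0.99), IRS2 (0.59) and CCNG2 (0.55), and IRS1 was lower (−0.68; median 0.09). Of 22 genes of the unfolded protein response, 4 were higher and 4 lower (median −0.03): the sensor ERN1 (0.78) and its target XBP1 (1.07) were higher, and the sensor ATF6 (−0.77) was lower. Of 27 heat shock genes, 3 were higher and 2 lower (median 0.06). The higher count was 7 without TRF 2, 5 without DDP 3, 1 without CON 3, TRF 3 or TRF+DDP 2, and 8 on linear TPM. HSPA1B (0.34) is uncertain because HSPA1A is a near-identical copy. Of 22 histone genes 3 were higher and 1 lower (median 0.21), with H4C14 (1.02) uncertain for the same reason, though called under all 20 alternatives. The calls of the other higher members were lost under 15 of 19 alternatives (H2BC17) and 9 of 20 (H1-2). That of H4C1, the lower member, was lost under 3 of 19.

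Glycolysis genes were higher in 5 and lower in 7 of 23 (median −0.07). The lower ones included GAPDH (−0.18), ENO1 (−0.28) and LDHA (−0.18). Fatty acid synthesis had 1 higher and 4 lower of 12 (median −0.26), among them SCD (−0.46) and ACLY (−0.31). Of 38 autophagy and lysosome genes 7 were higher and 6 lower (median 0.00), and of 20 tRNA synthetases 2 and 4 (median 0.02). Of 13 mitochondrially encoded genes 2 were higher and 1 lower (median 0.17), and of 16 clock genes 2 and 2 (median −0.10). Of 11 genes of the MYC network 1 was higher and 3 lower (median 0.05), and of 13 anti-apoptotic genes 2 and 4 (median −0.09). Of 23 secreted and surface regulators of growth 9 were higher and 7 lower (median −0.15), and of the 3 PHLDA genes 2 were higher (median 0.51). Of the marker lists, 1 lung epithelial gene was higher and 2 lower of 7 tested, and 1 of 2 leukocyte genes was higher (ITGAM). Some calls counted here were lost under several of 20 alternatives. These were ITGAM and MT-CO1 (9 each), the tRNA synthetases MARS1 (12) and TARS1 (6), SLC16A1 (8) of the glycolysis list and MCOLN1 (6) of the lysosome list.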
